A study of Mus musculus with 9 samples.

Results

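The 44 collagen alpha chain genes of the mouse were followed in HC11 cells, a mouse mammary epithelial line that can be driven toward a milk-secreting state by lactogenic hormones. They are the genes whose symbol has the form Col, number, a, number among the 24421 genes of the deposited count table. Polyadenylated RNA was sequenced with a directional kit in 9 libraries, 3 per group. All cells were at passage 30, reached confluency in 3 days and then rested for 1 day in R medium. That medium holds 5 µg/mL insulin in 2% fetal bovine serum, and cells taken at that point are R day1. The D day1 and D day6 groups then spent 1 or 6 days in D medium, renewed every 2 days. D medium is R medium plus 1 µM hydrocortisone and 5 µg/mL prolactin. No group kept for 6 days in R medium was analysed here, so hormones and days in culture cannot be told apart. No label says whether replicates are separate cultures, so the spread that the p-values rest on may be technical. In bulk RNA, fewer cells of a type and less RNA per cell cannot be told apart either.

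Collagens are matrix proteins built of 3 alpha chains wound into a triple helix, and they fall into classes by how the helices assemble. Fibrillar collagens (types I, II, III, V, XI and their relatives) pack into banded fibrils, and FACIT collagens such as type IX sit on the surface of those fibrils. Type IV collagen forms the sheet-like network of the basement membrane under epithelia, including the mammary epithelium, whose milk protein expression is known to depend on contact with that membrane. Transmembrane collagens such as type XVII stay anchored in the cell membrane, where type XVII is part of the hemidesmosome, and type VII forms the fibrils that tie the basement membrane to the stroma beneath. Type VI makes beaded filaments close to the basement membrane, and types VIII and X are short-chain network formers.

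Between 59621562 and 73571270 counts were assigned to genes per library, and collagen genes took between 0.456% and 0.878% of them. D day1 replicate 2 stood apart from its group: its counts differed from those of the other D day1 libraries with a chi-square per degree of freedom of 573 and 593, against 10.1 to 68.3 for the other pairs within groups. In that library 26 of the 33 collagen genes tested (78.8%) were below the mean of the other D day1 libraries, against 51.3% of all genes tested, with a median log2 deviation of -0.50 against -0.02. Long genes were lower in it, with a Spearman correlation between deviation and summed exon length of -0.69 across the 13866 genes tested and -0.54 across the 33 collagens. Collagen transcripts are long, with a median exon length of 5605 bases against 2862 bases for all genes tested. The part of transcript length in the D day1 results was not tested. Values without this library stand beside calls of named genes that it changes. Luminal mammary markers exceeded 1 CPM in a group mean for 9 of 10 genes, and basal ones for 7 of 9. Those that did not were Krt19, Myh11 and Cnn1, with highest group means of 0.124, 0.448 and 0.146 CPM. The highest group means of the basal markers Acta2 and Oxtr were 1.95 and 1.03 CPM. Of 11 fibroblast markers, 8 exceeded 1 CPM. Their summed level ranged from 7016 to 8199 CPM in R day1, from 14795 to 21440 CPM in D day1 and from 5282 to 6115 CPM in D day6. Most of it was periostin (Postn), and Thy1 and Fap stayed under 0.1 CPM in every group mean. Postn alone had group means of 7144, 18881 and 5412 CPM in the 3 groups in order of time. The means of Pdgfra, Pdgfrb, Vim, S100a4, Twist1 and Twist2 were highest in R day1, and those of Dcn and Lum in D day6. The part of these genes in the collagen changes was not tested.

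Of the 44 genes, 29 exceeded 1 CPM in at least 1 group mean, where CPM is the usual depth-scaled count, here on library sizes adjusted by the trimmed mean of M values (TMM). There were 28 above that level in R day1, 27 in D day1 and 26 in D day6. By class, 10 of 11 fibrillar, 6 of 9 FACIT, 3 of 6 type IV, 2 of 4 transmembrane, 3 of 6 type VI, 1 of 2 multiplexin, 3 of 3 short-chain and 1 of 3 other genes passed. Another 4 genes were tested but stayed at or below 1 CPM: Col4a3, Col4a4, Col15a1 and Col22a1. The remaining 11 genes had too few counts to test, with 0 to 31 counts per group and no library above 0.213 CPM: Col24a1, Col4a6, Col14a1, Col19a1, Col13a1, Col23a1, Col6a4, Col6a5, Col6a6, Col26a1 and Col28a1. Thus the partner chains Col4a6 of type IV and Col6a4 to Col6a6 of type VI were near 0 in all 3 groups.

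On a length-corrected scale (RPKM, CPM per kilobase of exon), a few chains made up most of the collagen mRNA. In R day1 Col6a1 led at 271 ± 16.3 RPKM and Col17a1 followed at 218 ± 18.1 RPKM (mean ± SD, n = 3 libraries), so that these chains together held 52.6% of the collagen RPKM. Col11a1 (65.5 ± 4.28 RPKM) and Col4a5 (61.1 ± 5.15 RPKM) came next and overlapped each other. In D day1 Col6a1 remained first at 447 ± 42.9 RPKM, while Col2a1 (225 ± 49.5 RPKM) and Col17a1 (225 ± 44.1 RPKM) overlapped in the next places. In D day6 the order was Col2a1 (231 ± 11.2 RPKM), Col6a1 (201 ± 16.0 RPKM), Col11a1 (127 ± 4.68 RPKM) and Col17a1 (107 ± 4.77 RPKM), with no overlap between neighbours. Col2a1, ninth in R day1 at 34.5 ± 8.49 RPKM, was therefore the chain with the highest level at the end of the course.

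**Figure D1:**
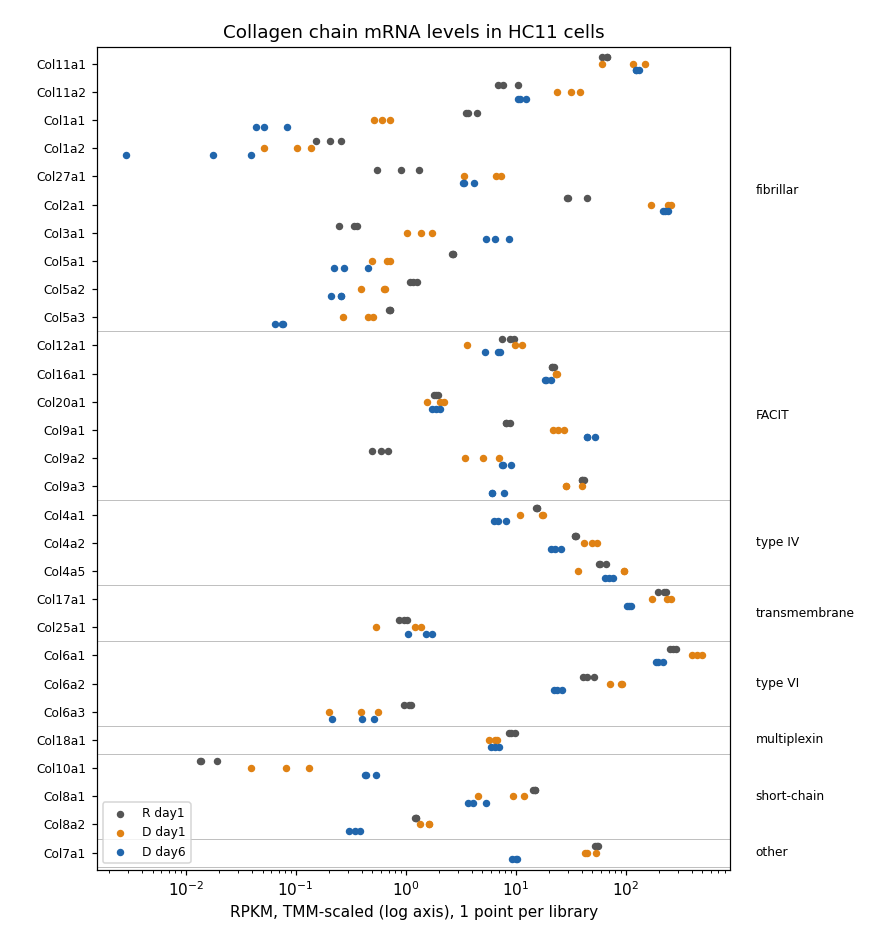
Level of each of the 29 collagen genes above 1 CPM, as RPKM on a log axis, with 1 point per library (3 per group) and genes grouped by class. The D day6 points of Col1a1, Col5a1, Col5a2 and Col5a3 lie below their R day1 points, and those of Col2a1, Col3a1, Col9a1 and Col9a2 lie above them.

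Against R day1, 19 of the 33 collagen genes tested changed in D day1 (57.6%, against 30.6% of all genes tested), 11 higher and 8 lower; 15.4% of all genes were called higher and 15.2% lower. A gene was called when its Benjamini-Hochberg adjusted p in edgeR's quasi-likelihood test was under 0.05. In D day6, 24 of 33 changed from R day1 (72.7%, against 50.6% of all genes), 8 higher and 16 lower, where 24.3% and 26.2% of all genes were called in those directions. Between D day1 and D day6, 21 of 33 changed (63.6%, against 36.6%), 5 higher and 16 lower, where 17.1% and 19.5% of all genes were called. Changes of at least 2-fold were called for 14 collagens in D day1 against R day1 (8 higher, 6 lower, against 11.3% of all genes). There were 19 in D day6 against R day1 (7 and 12, against 23.5%) and 17 between the D days (4 and 13, against 14.4%). Those of D day1 against R day1 include genes with every group mean under 1 CPM. They were Col22a1, higher (adjusted p = 0.046), and Col4a3 (0.0445) and Col4a4 (0.0351), lower. The last pair had its lowest value in D day1 replicate 2. Col22a1 was also among those of the other comparisons, and Col4a3 among those between the D days. Col22a1 passed the filter on low counts only through D day6, so its rises were partly fixed by that filter. The median log2 change of the 33 collagens was 0.05 in D day1 and -0.43 in D day6 against R day1, and -0.35 between the D days, where the medians of all genes tested were 0.0045, -0.0035 and -0.03. Without D day1 replicate 2 the counts were 25 of 34 in D day1 (15 higher, 10 lower, against 52.9% of all genes). They were 29 in D day6 (11 and 18, against 75.6%) and 24 between the D days (6 and 18, against 58.4%). The comparisons share libraries and are not independent of each other.

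**Figure D2:**
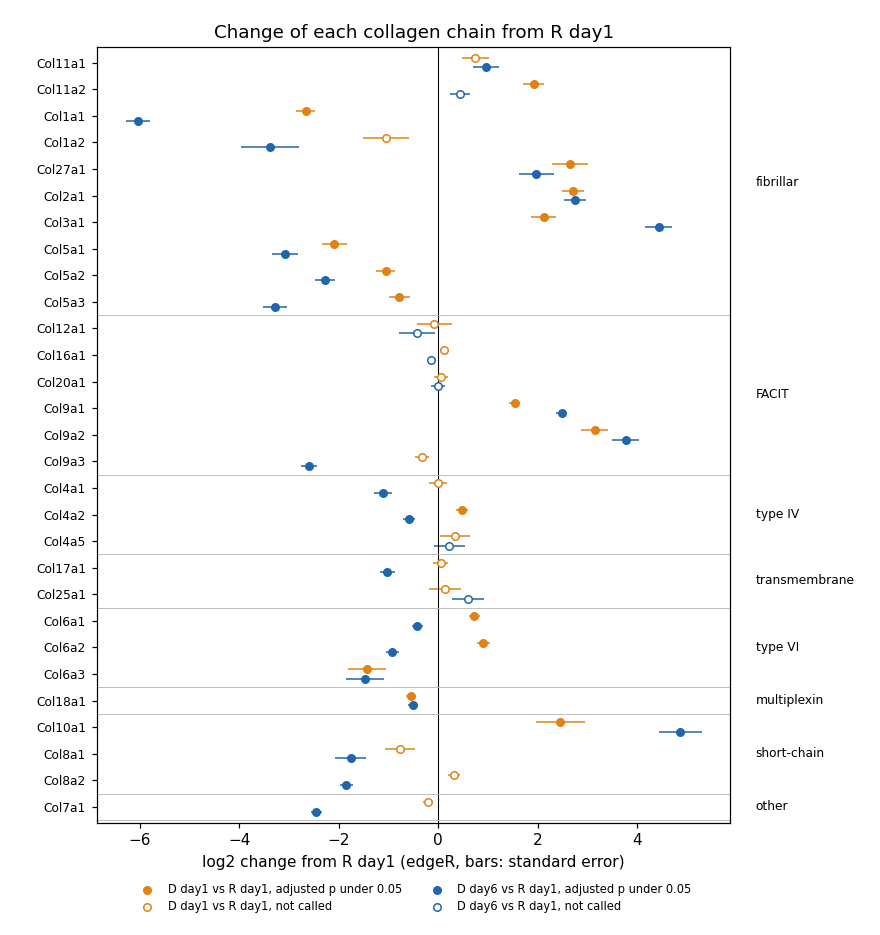
Fitted log2 change of each of the 29 collagen genes above 1 CPM from R day1 to D day1 (orange) and D day6 (blue), with bars for the standard error. Filled points have an adjusted p under 0.05 and open points do not. Fibrillar chains spread from -6.04 (Col1a1, D day6) to 4.43 (Col3a1, D day6), while the transmembrane and type IV chains lie closer to 0.

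RefSeq promoter windows were found for 35 of the 44 genes. The stretches of 250 bases before the start annotated by RefSeq are shown for 4 genes with a window that stand for the patterns described here. They are Col11a2, which was called higher in D day1 and not in D day6, and Col9a1 and Col3a1, which were called higher in both D groups. The last is Col7a1, which fell in D day6. All these calls are against R day1. Coordinates are GRCm38.p6, sequences are written 5′ to 3′ and credited to RefSeq. The windows of Col9a1 and Col3a1 end next to the gene start in the deposited table. Those of Col11a2 and Col7a1 end upstream of the deposited starts, which are 34039437 and 108953745. Capitals mark matches on either strand, at any position, to TATAAA (the letters of the TATA box), GGGCGG (GC box) or ACAAAG (SOX factors). They also mark AGAACA (the hexamer of glucocorticoid receptor sites) and the STAT5 motif, TTC and GAA with 3 free bases between them.
Col11a2, chr17:34038888-34039137, plus strand: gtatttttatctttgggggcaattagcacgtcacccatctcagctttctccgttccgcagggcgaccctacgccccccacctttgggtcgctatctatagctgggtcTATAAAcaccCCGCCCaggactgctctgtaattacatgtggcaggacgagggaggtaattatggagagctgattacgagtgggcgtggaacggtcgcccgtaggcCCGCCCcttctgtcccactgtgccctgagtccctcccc
Col9a1, chr1:24177360-24177609, plus strand: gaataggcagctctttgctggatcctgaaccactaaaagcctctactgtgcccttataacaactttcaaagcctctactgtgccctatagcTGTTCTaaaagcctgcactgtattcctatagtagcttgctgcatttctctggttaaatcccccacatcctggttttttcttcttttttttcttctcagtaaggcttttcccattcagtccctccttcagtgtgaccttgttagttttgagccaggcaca
Col3a1, chr1:45311288-45311537, plus strand: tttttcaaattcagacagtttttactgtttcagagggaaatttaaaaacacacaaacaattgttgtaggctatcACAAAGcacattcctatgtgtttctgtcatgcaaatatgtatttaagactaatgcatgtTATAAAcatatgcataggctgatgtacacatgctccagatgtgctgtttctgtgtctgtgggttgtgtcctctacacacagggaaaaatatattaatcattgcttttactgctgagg
Col7a1, chr9:108953336-108953585, plus strand: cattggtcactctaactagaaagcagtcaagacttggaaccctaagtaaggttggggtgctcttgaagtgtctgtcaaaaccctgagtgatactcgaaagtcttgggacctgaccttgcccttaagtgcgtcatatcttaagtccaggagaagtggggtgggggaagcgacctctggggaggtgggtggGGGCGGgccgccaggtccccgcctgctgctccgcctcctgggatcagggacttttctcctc
Col11a2 holds the TATAAA box and a pair of GC boxes, and the Col9a1 window shown holds the glucocorticoid receptor hexamer as TGTTCT. Another RefSeq window of Col9a1, further into the gene and not shown, holds no match to any of these motifs. Col3a1 holds a SOX hexamer and the TATAAA box, and Col7a1 a GC box. Over the 38 collagen windows, TATAAA was in 5, GGGCGG in 22, ACAAAG in 4, AGAACA in 2 and the STAT5 motif in 2. Of all 32851 mouse windows of the same length, they were in 12.4%, 32.7%, 16.5%, 16.1% and 7.02%. A match describes letters in the window and is no evidence of binding.

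Among fibrillar collagens, Col2a1, Col11a1, Col27a1 and Col3a1 rose by D day6, and all 5 chains of types I and V fell. In D day1, 4 of the 10 tested rose and 4 fell (80% called, against 30.6% of all genes). In D day6, 4 rose and 5 fell against R day1 (90%, against 50.6%). The summed level of the class went from 118 ± 13.5 RPKM in R day1 to 376 ± 77.1 in D day1 and 380.2 ± 14.9 in D day6 (n = 3). These are ratios of 3.18 and 3.22 to R day1, with no overlap between either D group and R day1. Its share of the collagen RPKM was 12.7% ± 0.775, 26.1% ± 2.39 and 41.0% ± 0.398 (SD, n = 3), and these did not overlap between groups. No test was made on class sums.

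Col2a1 (mm10 chr15:97975602-98004724, minus strand) encodes the single chain of type II collagen, the main fibril collagen of cartilage. It had 227, 151 and 153 CPM in R day1, 866, 1261 and 1341 CPM in D day1 and 1182, 1128 and 1243 CPM in D day6. All D libraries were above all R libraries and the D groups overlapped each other. Its log2 change was 2.71 ± 0.217 (adjusted p = 8.24e-05) in D day1 and 2.74 ± 0.217 (adjusted p = 1.33e-05) in D day6, here and below the estimate ± its standard error. Col11a1, a type XI chain that copolymerises with type II, had 490.3, 498 and 441 CPM in R day1, 848, 444 and 1101 CPM in D day1 and 963, 898 and 912 CPM in D day6. D day1 replicate 2 lay within the R day1 range and the other D libraries lay above it. The change was 0.74 ± 0.269 (adjusted p = 0.0664) in D day1, not called, and 0.96 ± 0.270 (adjusted p = 0.0161) in D day6. Without D day1 replicate 2 the first was 1.03 (adjusted p = 1.18e-05), and without R day1 replicate 3 the second was 0.90 (adjusted p = 0.0604). Col11a2, its partner chain, had 58.7, 42.6 and 38.4 CPM in R day1, 134, 177 and 216 CPM in D day1 and 60.9, 58.6 and 70.4 CPM in D day6. The D day1 libraries were all above the others, with a rise of 1.92 ± 0.209 (adjusted p = 3.38e-04) followed by a called change between the D days of -1.47 ± 0.206 (adjusted p = 7.38e-04). Against R day1 the D day6 value was 0.44 ± 0.203 (adjusted p = 0.1), not called, and 0.45 (adjusted p = 0.0425) without D day1 replicate 2.

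Col27a1, a fibrillar chain made by cartilage and some epithelia, had 10.0, 6.92 and 4.22 CPM in R day1, 25.9, 50.4 and 56.0 CPM in D day1 and 25.8, 25.3 and 31.8 CPM in D day6. Both D groups were above R day1 in every library, with rises of 2.64 ± 0.364 (adjusted p = 9.87e-04) and 1.97 ± 0.356 (adjusted p = 0.00161). Col3a1 (chr1:45311538-45349706, plus strand) encodes type III collagen, found with type I in stretchable tissues. It had 1.90, 2.01 and 1.39 CPM in R day1, 7.66, 5.76 and 9.58 CPM in D day1 and 29.7, 36.5 and 48.2 CPM in D day6. The groups were separate and ordered R day1, D day1, D day6. Col3a1 rose by 2.12 ± 0.254 (adjusted p = 5.25e-04) and 4.43 ± 0.272 (adjusted p = 3.22e-06) against R day1 and 2.31 ± 0.244 (adjusted p = 1.58e-04) between the D days. Of the fibroblast markers, Dcn and Lum, which encode proteoglycans of collagen fibrils, had group means of 0.279, 1.53 and 134 CPM and 0.0374, 0.166 and 10.2 CPM in the same order. Other markers had their lowest mean in D day6, such as S100a4 at 79.2, 53.7 and 13.1 CPM, Pdgfrb at 19.2, 14.3 and 3.76 CPM and Vim at 123, 73.8 and 37.6 CPM. Their part in the Col3a1 values was not tested. Col3a1 stayed low per length, at 6.85 RPKM in D day6.

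Col1a1 (chr11:94936270-94951856, plus strand) encodes the major chain of type I collagen, the textbook product of fibroblasts. It had 20.8, 16.7 and 17.5 CPM in R day1, 2.44, 2.85 and 3.38 CPM in D day1 and 0.205, 0.244 and 0.390 CPM in D day6. The groups did not overlap, and Col1a1 was 65.9-fold lower in D day6 than in R day1. Its log2 changes were -2.66 ± 0.193 (adjusted p = 4.87e-05) in D day1, -6.04 ± 0.244 (adjusted p = 4.48e-07) in D day6 and -3.38 ± 0.238 (adjusted p = 1.84e-05) between them. Col1a2, which joins it in the type I trimer, had 1.06, 0.786 and 1.33 CPM in R day1, 0.706, 0.264 and 0.530 CPM in D day1 and 0.0146, 0.0916 and 0.203 CPM in D day6. R day1 and D day6 were separate, and its change was -1.06 ± 0.463 (adjusted p = 0.117) in D day1, not called, and -3.39 ± 0.585 (adjusted p = 0.00125) in D day6. Its fall between the D days, -2.33 ± 0.619 (adjusted p = 0.0181), was lost without D day1 replicate 1 (adjusted p = 0.0523) or D day6 replicate 2 (0.066).

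Col5a1, a type V chain that starts type I fibrils, had 22.4, 22.8 and 22.9 CPM in R day1, 5.67, 4.14 and 6.12 CPM in D day1 and 1.89, 2.33 and 3.85 CPM in D day6. Its R day1 libraries were above all D libraries, with called changes of -2.09 ± 0.249 (adjusted p = 5.03e-04) and -3.08 ± 0.261 (adjusted p = 1.96e-05). Col5a2 had 7.67, 8.44 and 7.25 CPM in R day1, 4.25, 2.63 and 4.28 CPM in D day1 and 1.39, 1.72 and 1.70 CPM in D day6. The groups did not overlap and the called changes were -1.06 ± 0.192 (adjusted p = 0.00367) and -2.28 ± 0.203 (adjusted p = 2.61e-05). Col5a3 had 4.36, 4.27 and 4.36 CPM in R day1, 3.08, 1.66 and 2.78 CPM in D day1 and 0.468, 0.397 and 0.458 CPM in D day6. Again the groups did not overlap, and Col5a3 fell by 3.29 ± 0.242 (adjusted p = 8.57e-06) on the log2 scale in D day6. Its D day1 change of -0.78 ± 0.207 (adjusted p = 0.0208) was called but was lost without any 1 of the R day1 libraries (adjusted p up to 0.0674). Between the D days the type V chains changed by -0.99 ± 0.251 (adjusted p = 0.0152) for Col5a1, -1.22 ± 0.201 (adjusted p = 0.00183) for Col5a2 and -2.51 ± 0.242 (adjusted p = 9.57e-05) for Col5a3. The first was lost without D day6 replicate 2 (adjusted p = 0.063).

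Ratios between fibrillar chains that assemble together, or are found together, differed between groups. Per length, Col11a1 stood at 1.96 ± 0.408 of Col2a1 in R day1, 0.506 ± 0.230 in D day1 and 0.552 ± 0.0298 in D day6 (mean ± SD, n = 3), the D groups both below R day1. The ratio of Col11a2 to Col11a1 was 0.127 ± 0.0249, 0.326 ± 0.168 and 0.0890 ± 0.00972, highest in D day1, where D day1 replicate 2 alone reached 0.518. Col1a1 per Col1a2 was 19.7 ± 4.71, 7.53 ± 4.04 and 6.78 ± 7.41; the wide spread in D day6 goes with Col1a2 counts near 0, and that group overlaps R day1. Col5a1 per Col5a2 went from 2.31 ± 0.178 in R day1 to 1.14 ± 0.0960 and 1.31 ± 0.415. Col3a1 per Col1a1, the pair that changed in opposite directions, went from 0.0818 ± 0.0175 to 2.25 ± 0.487 and 118 ± 11.5, with no overlap between groups. No test was made on these ratios.

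**Figure D3:**
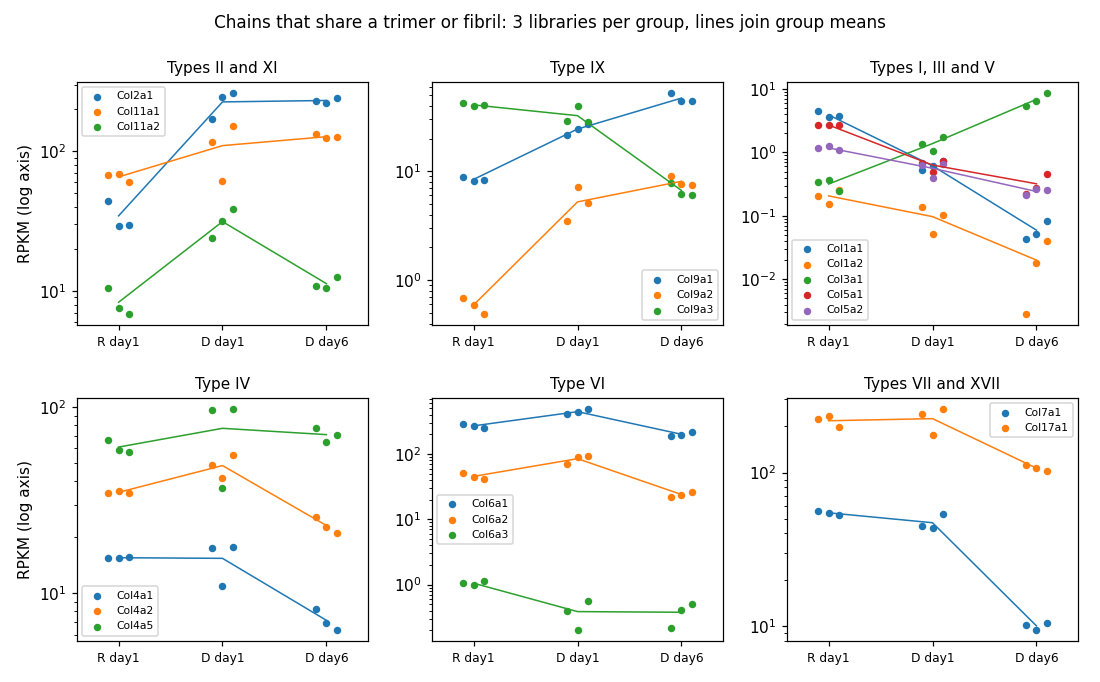
RPKM on a log axis of chains that share a trimer, a fibril or an attachment structure, with 3 points per group, 1 per library, and lines joining the group means. Col9a3 crosses below Col9a1 in D day6, Col3a1 crosses above Col1a1 in D day1, and the type VI chains Col6a1 and Col6a2 peak in D day1.

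Of the FACIT collagens above 1 CPM, Col9a1 and Col9a2 of type IX rose, Col9a3 of the same trimer fell by D day6, and the other 3 were not called against R day1. Of 7 tested, 3 rose and 0 fell in D day1 (42.9% called, against 30.6% of all genes). In D day6, 3 rose and 1 fell against R day1 (57.1%, against 50.6%). Those that rose include Col22a1, called in D day1 on 9 counts against 0 (adjusted p = 0.046). Col22a1 passed the filter on low counts only through its D day6 libraries (13, 13 and 17 counts). Its rises were thus partly fixed by that filter and are no support for the class counts. Col9a1 had 36.6, 33.9 and 34.2 CPM in R day1, 89.8, 101 and 113 CPM in D day1 and 217, 183 and 183 CPM in D day6. Its groups were separate and ordered R day1, D day1, D day6. Col9a1 rose by 1.53 ± 0.113 (adjusted p = 5.15e-05) and 2.48 ± 0.116 (adjusted p = 8.15e-07) against R day1 and 0.94 ± 0.111 (adjusted p = 2.95e-04) between the D days. Col9a2 had 1.90, 1.64 and 1.35 CPM in R day1, 9.62, 19.6 and 14.0 CPM in D day1 and 24.9, 21.2 and 20.6 CPM in D day6. R day1 was below every D library, with rises of 3.14 ± 0.265 (adjusted p = 1.05e-04) and 3.77 ± 0.270 (adjusted p = 7.32e-06). Between the D days Col9a2 changed by 0.63 ± 0.237 (adjusted p = 0.0659), not called, and by 0.92 (adjusted p = 5.03e-04) without D day1 replicate 2.

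Col9a3, the third chain of the type IX trimer, went the other way, with 119, 113 and 115 CPM in R day1, 82.3, 113 and 81.1 CPM in D day1 and 22.2, 17.5 and 17.3 CPM in D day6. D day6 was below all other libraries, with a called change of -2.61 ± 0.159 (adjusted p = 3.18e-06) against R day1 and -2.28 ± 0.158 (adjusted p = 1.71e-05) against D day1. Its D day1 change was -0.33 ± 0.150 (adjusted p = 0.13), not called, and -0.50 (adjusted p = 6.87e-04) without D day1 replicate 2. Exons of Col9a3 overlap those of Tcfl5 on the opposite strand in the deposited table. If strand was not used in counting, reads in the overlap could have been added to Col9a3 or left out of its count. Per length, Col9a1 went from 0.207 ± 0.00317 of Col9a3 in R day1 to 0.773 ± 0.175 in D day1 and 7.07 ± 0.303 in D day6, without overlap.

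Col12a1 and Col16a1 encode proteins that attach to fibrils and basement membranes. Together with Col20a1 they had group means of 102, 96.7 and 76.0 CPM for Col12a1, 113, 122 and 102 CPM for Col16a1 and 7.91, 8.20 and 7.87 CPM for Col20a1 in the 3 groups in order of time. None of the 3 was called against R day1, with log2 values between -0.43 and 0.12. Col16a1, the highest of them per length, had 116, 111 and 112 CPM in R day1, 121, 120.4 and 125 CPM in D day1 and 110.3, 97.7 and 96.9 CPM in D day6. All its values lay within a narrow band, and its change between the D days of -0.26 ± 0.0792 (adjusted p = 0.03) was lost on leaving out any single library other than D day1 replicate 2 or D day6 replicate 1 (adjusted p up to 0.122). It was also lost with no filter on low counts, with the replicate block and in a fit of only the 6 libraries compared (adjusted p up to 0.0899). Without D day1 replicate 2, Col12a1 was -0.42 (adjusted p = 0.00919) and Col16a1 -0.14 (adjusted p = 0.0307) in D day6 against R day1, both called. In that fit Col12a1 was -0.70 (adjusted p = 0.00121) between the D days, where its value with all libraries was -0.35 ± 0.357 (adjusted p = 0.467). Col22a1 had 0 counts in all R day1 libraries, 9 in D day1 and 43 in D day6. Against a floor of 3 counts over the R day1 group this is at least 15.3-fold higher in D day6, at a level of 0.223 CPM. The FACIT sum was 82.0 ± 0.886 RPKM in R day1, 95.7 ± 6.21 in D day1 and 89.7 ± 6.79 in D day6. That is a ratio of 1.09 for D day6 to R day1. With library totals as the only scaling its log2 ratio of 0.13 turned to -0.0090.

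The type IV chains of the basement membrane above 1 CPM had log2 changes from R day1 between -1.12 and 0.48. In D day1, 1 of the 5 genes tested rose and 2 fell (60% called, against 30.6% of all genes). Those that fell were Col4a3 and Col4a4, with group means under 1 CPM. In D day6, 0 rose and 2 fell against R day1 (40%, against 50.6%). Col4a1, which with Col4a2 forms the type IV trimer of nearly all basement membranes, had 103, 102 and 104 CPM in R day1, 116, 72.5 and 118 CPM in D day1 and 54.6, 45.6 and 42.1 CPM in D day6. D day6 was below every other library, with a called change of -1.12 ± 0.183 (adjusted p = 9.14e-04) against R day1 and -1.11 ± 0.183 (adjusted p = 0.00184) against D day1. The D day1 value was -0.011 ± 0.180 (adjusted p = 0.968), not called. Col4a2 had 222, 228 and 223 CPM in R day1, 316, 267 and 354 CPM in D day1 and 165, 146 and 136 CPM in D day6. The 3 groups were separate, D day1 highest and D day6 lowest. Col4a2 rose by 0.48 ± 0.119 (adjusted p = 0.0161) in D day1, and its later changes were -0.59 ± 0.119 (adjusted p = 0.00291) against R day1 and -1.07 ± 0.120 (adjusted p = 2.24e-04) against D day1. The D day1 rise was lost without any 1 of the R day1 libraries (adjusted p up to 0.0621) and was 0.58 (adjusted p = 1.17e-04) without D day1 replicate 2.

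Col4a1 and Col4a2 lie head to head on chromosome 8 with 2 bases between their deposited gene ends. Col4a1 per Col4a2 went from 0.446 ± 0.00958 in R day1 to 0.315 ± 0.0467 in D day1 and 0.309 ± 0.0113 in D day6, both D groups below R day1. Col4a5, a chain of the more restricted type IV networks, was the type IV gene with the highest level per length. It had 434, 383 and 371 CPM in R day1, 624, 240.2 and 635 CPM in D day1 and 503, 422 and 462 CPM in D day6. All groups overlapped, D day1 replicate 2 being the lowest of the 9 libraries and the other D day1 libraries the highest. Its changes were 0.33 ± 0.310 (adjusted p = 0.439) in D day1 and 0.22 ± 0.310 (adjusted p = 0.588) in D day6, neither called. Without D day1 replicate 2 they were 0.67 (adjusted p = 6.90e-05) and 0.23 (adjusted p = 0.016). Between the D days the value was -0.11 ± 0.310 (adjusted p = 0.793), and -0.44 (adjusted p = 8.82e-04) without that library. Its neighbour and trimer partner Col4a6, head to head at 1342 bases, had no library above 0.066 CPM. The type IV sum was 112 ± 4.82 RPKM, 141 ± 44.8 and 102 ± 8.70 in the 3 groups in order of time, with overlap between all groups.

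In the transmembrane class, 0 of 2 tested genes were called in D day1 and 1 fell in D day6, where 30.6% and 50.6% of all genes were called. Col17a1 (chr19:47646341-47692042, minus strand), the hemidesmosome collagen of basal epithelial cells, had 1232, 1291 and 1096 CPM in R day1, 1326, 971 and 1439.6 CPM in D day1 and 619, 590.5 and 566 CPM in D day6. R day1 and D day1 overlapped and D day6 was below every other library. The change was 0.046 ± 0.149 (adjusted p = 0.835) in D day1, -1.03 ± 0.150 (adjusted p = 4.74e-04) in D day6 and -1.07 ± 0.151 (adjusted p = 7.50e-04) between the D days. Without D day1 replicate 2 the first was 0.20 (adjusted p = 0.046), which is called. Col25a1, known from neurons, had 6.55, 7.28 and 7.63 CPM in R day1, 9.12, 4.05 and 10.4 CPM in D day1 and 7.90, 11.4 and 13.1 CPM in D day6. D day1 overlapped both other groups, and all D day6 libraries were above all R day1 libraries. The changes of 0.14 ± 0.319 (adjusted p = 0.767) and 0.59 ± 0.319 (adjusted p = 0.156) were not called. The second was 0.59 (adjusted p = 0.00546) without D day1 replicate 2. The class held 23.6% ± 1.27 of the collagen RPKM in R day1, 15.7% ± 2.16 in D day1 and 11.7% ± 0.649 in D day6.

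Col7a1 (chr9:108953745-108984875, plus strand), the anchoring fibril collagen that meets the hemidesmosome from the other side of the basement membrane, was the only tested gene outside the named classes. It had 516, 502 and 488 CPM in R day1, 409, 397 and 491 CPM in D day1 and 93.6, 86.1 and 95.4 CPM in D day6. R day1 and D day1 overlapped and D day6 was far below both, with called changes of -2.45 ± 0.107 (adjusted p = 6.05e-07) against R day1 and -2.24 ± 0.106 (adjusted p = 3.46e-06) against D day1. The D day1 value was -0.22 ± 0.102 (adjusted p = 0.141), not called, and -0.31 (adjusted p = 0.0338) without D day1 replicate 3. The summed level of the basal epithelial markers was 8025 to 8516 CPM in R day1, 6875 to 11097 CPM in D day1 and 2780 to 2938 CPM in D day6. The R day1 range thus lay within that of D day1. Krt14 was the largest part in R day1 and D day1, and Itgb4 in D day6. Means of Krt5, Krt14, Krt17, Trp63, Itgb4, Myh11 and Cnn1 were lower in D day6 than in R day1. Those of Acta2 (0.117 and 1.95 CPM) and Oxtr (0.577 and 0.863 CPM) were higher. The part of these markers in the Col7a1 and Col17a1 values was not tested.

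Of type VI collagen, Col6a1 and Col6a2 rose in D day1 and fell below R day1 in D day6, while Col6a3, its long chain, fell in both. Col6a1 (chr10:76708792-76726044, minus strand) had 1145, 1069.8 and 1017 CPM in R day1, 1614, 1765 and 1954 CPM in D day1 and 745, 787 and 870.3 CPM in D day6. The groups were separate, with D day1 highest and D day6 lowest. The changes were 0.72 ± 0.112 (adjusted p = 0.00175) in D day1, -0.43 ± 0.112 (adjusted p = 0.0112) in D day6 and -1.15 ± 0.113 (adjusted p = 1.07e-04) between the D days. The D day6 fall was lost without D day6 replicate 1 (adjusted p = 0.0518). Col6a2 had 191, 166 and 153 CPM in R day1, 268, 342 and 343 CPM in D day1 and 82.8, 88.4 and 97.9 CPM in D day6. The order of its groups was the same, again without overlap, and its changes were 0.90 ± 0.131 (adjusted p = 0.0013), -0.92 ± 0.131 (adjusted p = 3.98e-04) and -1.82 ± 0.134 (adjusted p = 2.31e-05).

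Col6a3, which normally joins Col6a1 and Col6a2 in the type VI monomer, was scarce, with 11.5, 10.5 and 12.1 CPM in R day1, 4.29, 2.18 and 6.09 CPM in D day1 and 2.34, 4.36 and 5.56 CPM in D day6. R day1 was above all D libraries, with called changes of -1.44 ± 0.380 (adjusted p = 0.0205) and -1.48 ± 0.381 (adjusted p = 0.0104). The first was lost without R day1 replicate 1 (adjusted p = 0.0576) or 3 (0.0658). Per length, Col6a3 was 0.00389 ± 4.20e-04 of Col6a1 in R day1, 8.57e-04 ± 3.59e-04 in D day1 and 0.00184 ± 6.18e-04 in D day6, so it was far below its partner in all groups. Col6a2 was 0.168 ± 0.00880, 0.190 ± 0.0150 and 0.119 ± 7.90e-04 of Col6a1. The type VI sum held 34.2% ± 0.598 of the collagen RPKM in R day1, 37.3% ± 3.29 in D day1 and 24.4% ± 1.77 in D day6.

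**Figure D4:**
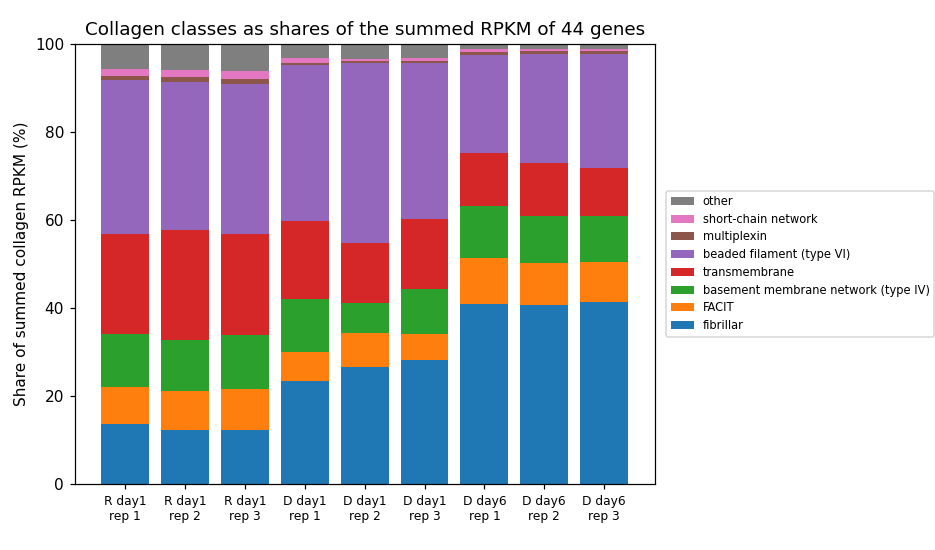
Share of the summed RPKM of the 44 collagen genes held by each class, in percent, with 1 stacked bar per library and bars that each reach 100. The fibrillar share is 12.2 to 13.6 in R day1, 23.4 to 28.1 in D day1 and 40.7 to 41.4 in D day6, and the transmembrane, type VI and other shares are lowest in D day6.

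The smaller classes held under 3% of the collagen RPKM each. Col18a1, the multiplexin of vascular and epithelial basement membranes and the source of endostatin, had 51.0, 53.0 and 57.0 CPM in R day1, 39.2, 33.1 and 38.0 CPM in D day1 and 34.7, 38.0 and 40.9 CPM in D day6. R day1 was above all D libraries and the D groups overlapped, with called changes of -0.54 ± 0.0997 (adjusted p = 0.00396) and -0.50 ± 0.0997 (adjusted p = 0.00266). Col10a1, the collagen of hypertrophic cartilage, had 0.0608, 0.0421 and 0.0435 CPM in R day1, 0.418, 0.123 and 0.258 CPM in D day1 and 1.70, 1.34 and 1.36 CPM in D day6. It rose from 10 counts over the R day1 group to 57 in D day1 and 284 in D day6, with log2 changes of 2.45 ± 0.50 (adjusted p = 0.00659) and 4.86 ± 0.428 (adjusted p = 2.44e-05) and no overlap. Col10a1 passed the filter on low counts and exceeded 1 CPM only through D day6, so its rise there was partly fixed by that selection.

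The type VIII chains, known from the matrix of endothelial layers, fell by D day6. Col8a1 had 74.1, 76.6 and 77.4 CPM in R day1, 61.4, 23.3 and 48.6 CPM in D day1 and 27.6, 18.8 and 20.9 CPM in D day6. D day1 replicate 2 lay within the D day6 range. It fell by 1.76 ± 0.310 (adjusted p = 0.00139) on the log2 scale in D day6, while its D day1 value was -0.77 ± 0.302 (adjusted p = 0.0843), not called. The latter was called without D day1 replicate 2, at -0.47 (adjusted p = 0.0151), and without D day1 replicate 1, at -1.08 (adjusted p = 0.0308). The value between the D days, -0.99 ± 0.305 (adjusted p = 0.0336), was called but was lost on leaving out any single library other than D day1 replicate 2 or D day6 replicate 1 (adjusted p up to 0.115). Col8a2 had 5.39, 5.31 and 5.38 CPM in R day1, 7.08, 5.89 and 7.02 CPM in D day1 and 1.65, 1.31 and 1.49 CPM in D day6. D day6 was below every other library, with a called change of -1.85 ± 0.131 (adjusted p = 6.86e-06) against R day1. The D day1 value of 0.32 ± 0.122 (adjusted p = 0.0821) was not called, and was 0.40 (adjusted p = 0.00671) without D day1 replicate 2.

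Summed over the 44 genes, collagen mRNA was 928 ± 53.1 RPKM in R day1, 1435 ± 187 in D day1 and 927 ± 28.6 in D day6 (n = 3). D day1 was above both other groups in every library, and R day1 and D day6 overlapped with a ratio of means of 0.999. The likeness of R day1 and D day6 depends on the TMM scaling. As a share of all assigned counts, without TMM or length correction, collagens took 0.546%, 0.528% and 0.491% in R day1. In D day6 they took 0.484%, 0.456% and 0.482%, every library below every R day1 library. The composition behind the sums also differed: fibrillar chains held 12.7% ± 0.775 of the total in R day1 and 41.0% ± 0.398 in D day6.

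Genes that fold and modify collagen chains in the endoplasmic reticulum moved in both directions. Of 22 in the table and 20 tested, 7 rose and 2 fell in D day1 (45% called, against 30.6% of all genes). In D day6, 6 rose and 3 fell (45%, against 50.6%), and 3 rose and 5 fell between the D days (40%, against 36.6%). Sparc, which encodes a collagen-binding matrix protein, had 546 ± 33.9 CPM in R day1, 1317 ± 294 CPM in D day1 and 1583 ± 112 CPM in D day6 (mean ± SD, n = 3 libraries). It rose by 1.27 ± 0.160 (adjusted p = 6.78e-04) and 1.54 ± 0.161 (adjusted p = 6.52e-05) against R day1. P3h4, a partner of the prolyl and lysyl hydroxylases, rose by 0.80 ± 0.182 (adjusted p = 0.0107) in D day1 and changed by -0.88 ± 0.182 (adjusted p = 0.00576) between the D days. Crtap, of the prolyl hydroxylation complex, changed by -0.85 ± 0.183 (adjusted p = 0.00699) between them. Plod2, the lysyl hydroxylase of the chain ends used in cross-linking, had 253 ± 34.0 CPM in R day1, 232 ± 63.3 CPM in D day1 and 704 ± 31.8 CPM in D day6 (mean ± SD, n = 3 libraries). It rose by 1.47 ± 0.199 (adjusted p = 2.88e-04) in D day6 against R day1 and by 1.60 ± 0.199 (adjusted p = 3.92e-04) against D day1. Mia3, which loads bulky procollagen into export vesicles, rose by 0.97 ± 0.143 (adjusted p = 9.86e-04) between the D days. The catalytic subunits of prolyl hydroxylase, whose product stabilises the triple helix, were lower. P4ha1 changed by -0.50 ± 0.0953 (adjusted p = 0.00497) and -0.74 ± 0.0956 (adjusted p = 2.36e-04) against R day1, and P4ha2 by -0.83 ± 0.190 (adjusted p = 0.0108) and -1.10 ± 0.191 (adjusted p = 0.00125). Without D day1 replicate 2 the counts of this list were 14 in D day6 against R day1 and 15 between the D days, in place of 9 and 8, in a fit that called 75.6% and 58.4% of all genes.

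Of 13 genes for trimming and cross-linking procollagen, 11 were tested. Of these, 3 rose and 1 fell in D day1 (36.4% called, against 30.6% of all genes). In D day6, 3 rose and 3 fell (54.5%, against 50.6%), and 3 rose and 4 fell between the D days (63.6%, against 36.6%). Loxl4, a lysyl oxidase family member, had 154 ± 14.6 CPM in R day1, 308 ± 80.4 CPM in D day1 and 296 ± 24.1 CPM in D day6 (mean ± SD, n = 3 libraries). It rose by 1.00 ± 0.187 (adjusted p = 0.00431) in D day1. Loxl3 rose by 0.97 ± 0.0953 (adjusted p = 2.08e-04) in D day1, and Loxl2 changed by -1.52 ± 0.269 (adjusted p = 0.00329) in D day1 and by 1.92 ± 0.269 (adjusted p = 7.41e-04) between the D days. Lox, which starts cross-links, rose by 1.25 ± 0.221 (adjusted p = 0.00139) in D day6. The procollagen N-proteinases went apart, Adamts3 rising by 2.66 ± 0.342 (adjusted p = 2.20e-04) to 1.02 CPM and Adamts2 falling by 2.55 ± 0.236 (adjusted p = 3.19e-05) to 0.156 CPM in D day6. Pcolce2, an enhancer of C-terminal trimming, changed by -0.79 ± 0.109 (adjusted p = 3.37e-04) in D day6, and Loxl3 by -0.86 ± 0.0951 (adjusted p = 2.14e-04) between the D days.

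Among 10 collagen receptor and uptake genes, 7 were tested. Of these, 3 rose and 2 fell in D day1 (71.4% called, against 30.6% of all genes). In D day6, 4 rose and 1 fell (71.4%, against 50.6%), and 4 rose and 2 fell between the D days (85.7%, against 36.6%). Itga10, the integrin subunit that binds type II collagen on chondrocytes, had 3.31, 2.86 and 2.39 CPM in R day1, 21.3, 22.4 and 33.4 CPM in D day1 and 71.8, 74.3 and 94.4 CPM in D day6. Its groups were separate and ordered R day1, D day1, D day6, with rises of 3.17 ± 0.219 (adjusted p = 3.59e-05) and 4.81 ± 0.234 (adjusted p = 9.94e-07). Ddr2, the receptor tyrosine kinase for fibrillar collagen, had 0.137, 0.211 and 0.130 CPM in R day1, 0.837, 0.493 and 0.645 CPM in D day1 and 4.99, 3.62 and 3.59 CPM in D day6. Its groups had the same order without overlap, with rises of 2.04 ± 0.305 (adjusted p = 0.00145) and 4.65 ± 0.285 (adjusted p = 3.20e-06). Itga1, a subunit that prefers type IV collagen, changed by -1.37 ± 0.426 (adjusted p = 0.0387) in D day1 and 2.58 ± 0.427 (adjusted p = 0.00184) between the D days. Itga2 fell in D day6 with -4.01 ± 0.645 (adjusted p = 8.26e-04) and lay under 0.1 CPM there. Mrc2, which takes up collagen fragments, changed by -1.10 ± 0.294 (adjusted p = 0.0213) in D day1. Ddr1, the epithelial collagen receptor kinase, changed by -0.56 ± 0.0916 (adjusted p = 0.00167) between the D days. The D day1 count of 5 was 2 in a fit of only the 6 libraries compared and without R day1 replicate 1 or 3. In each of these fits 2 rose and 0 fell, so the D day1 falls of Itga1 and Mrc2 were both lost. The count was 3, with 2 higher and 1 lower, without R day1 replicate 2 or D day1 replicate 3. It was 7 without D day1 replicate 2, where 52.9% of all genes were called.

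The authors' deposited table called 18 of the 29 genes above 1 CPM in D day1 against R day1 and 28 in D day6, at the same adjusted threshold. The share of all genes called there was not counted, so these counts serve only to compare calls gene by gene. The fit used here called 30.6% and 50.6% of all genes. Each of the 16 and 23 genes called here among those 29 was also called in the authors' deposited table. The 2 called in D day1 only by the authors' deposited table were Col1a2 (adjusted p = 0.0438) and Col8a2 (0.037). In D day6 the 5 called only there were Col11a2, Col4a5, Col12a1, Col16a1 and Col25a1. All 5 were also called here in the edgeR fit of only the 6 R day1 and D day6 libraries, with adjusted p between 0.00798 and 0.0321.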

How the data were processed

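RNA of 9 HC11 libraries was analysed from the whole-number read counts per gene that the authors deposited, made with featureCounts per the file headers. Per the submitters' processing notes, the upstream tools include DESeq2 1.16.1, R 3.3.0, HTSeq 0.6.1, SAMtools 0.1.18, TopHat2 2.0.6, Trimmomatic 0.32 and Bowtie2 2.0.2, with build mm10. Strand use in counting is not given in the sources here. The authors' deposited DESeq2 tables hold a mean normalized score, a log2 fold change and an adjusted p-value per gene, and were used only where named. 21 columns of per-sample values that match no sample were not used.

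Genes were kept by edgeR's filterByExpr (13866 of 24421) and scaled by TMM in R 4.3.3 (limma 3.58.1, edgeR 4.0.16). All 9 libraries entered 1 quasi-likelihood model with group as the only term, so that the groups share an estimate of spread, and p-values were adjusted over all genes tested by the Benjamini-Hochberg method. Standard errors were taken from the F statistic. Every adjusted p is from this fit unless the authors' deposited table is named. RPKM is CPM divided by summed exon length. The scripts were tested on simulated data. Depth was 59621562 to 73571270 counts per library, where 3 counts are 0.0392 to 0.0529 CPM.

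Every collagen above 1 CPM is named. Values in each library go to the 3 members per class with the highest level and to those called with at least 2-fold change, and of related lists the 2 most changed called genes in each direction are named. The members and lists were chosen with earlier results of these data known. Alternatives were relative log expression scaling within edgeR, the test of DESeq2 1.42.0, library totals, other filters, a replicate block, fits of 6 libraries and leaving out each library. Promoter sequences are RefSeq's, on GRCm38.p6, and gene positions are those of the deposited table, which overlap GENCODE M21 genes of the same symbol for all 44 members.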

Additional observations from a re-analysis of the deposited data

Results flagged for a closer look

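Col6a2, Col6a1 and Col4a2 changed in opposite directions against R day1 in the D groups, and the difference between those groups was itself tested. Col6a2 rose in D day1 and fell in D day6, with a log2 difference of -1.82 between D day6 and D day1. For Col6a1 that difference was -1.15, and for Col4a2 it was -1.07. The rise of Col4a2 in D day1 was lost without any 1 of the R day1 libraries. Groups of 3 libraries are too small for a check of single outlying values.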

How the results depend on the processing

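Across the alternatives run, the number of collagens called stayed within 1.5 times the count reported in each comparison, at 13 to 25 without 1 library for D day1 against R day1, 23 to 29 for D day6 against R day1 and 16 to 24 between the D days. The number above 1 CPM was 28 or 29 without 1 library. The receptor list had 5 calls in D day1, 3 with the replicate block, 2 in a fit of 6 libraries and 2 to 7 without 1 library. The folding list had 14 in D day6 in a fit of 6 libraries and 9 to 14 without 1 library, and 6 to 15 between the D days; the cause was not tested.

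The log2 ratio of the fibrillar sum in D day6 was 1.69, 1.56 on summed CPM and 1.55 with library totals as the only scaling. Library totals moved the median of all genes by -0.14 in D day6, and the sums of type IV to -0.27, FACIT to -0.0090 (0.16 in D day1), transmembrane to -1.15, type VI to -0.63, multiplexin to -0.64 and Col7a1's class to -2.59.

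Between the D days, the call of Col16a1 was also lost with no filter (adjusted p = 0.0628), with the replicate block (0.0616) and in a fit of 6 libraries (0.0899). Fits of only the 6 libraries compared also lost Col8a1 (0.0874), Col5a1 (0.0552) and Col1a2 (0.0515) between the D days and Col5a3 in D day1 (0.0573). DESeq2's test also called Col11a1, Col8a1 and Col8a2 in D day1 and Col9a2 between the D days. Signs turned for values that were not called. With library totals these were Col17a1 (-0.013) and Col20a1 (-0.021) in D day1, and Col18a1 (-0.036) and Col2a1 (-0.033) between the D days. With no filter they were Col4a1 (0.0012) in D day1 and Col20a1 (0.0032) in D day6, and in a fit of 6 libraries Col4a1 (0.0012). Without 1 library, ranges that crossed 0 in D day1 were those of Col17a1 (-0.068 to 0.20), Col20a1 (-0.051 to 0.19), Col25a1 (-0.11 to 0.45), Col4a1 (-0.12 to 0.18) and Col12a1 (-0.38 to 0.28). In D day6 it was that of Col20a1 (-0.066 to 0.053). Between the D days they were those of Col6a3 (-0.35 to 0.32), Col18a1 (-0.025 to 0.098), Col2a1 (-0.14 to 0.15), Col20a1 (-0.19 to 0.047), Col11a1 (-0.072 to 0.51) and Col4a5 (-0.44 to 0.094).

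Replicate numbers are shared by the groups, but the correlation of deviations ran from -0.20 to 0.17 over 9 same-numbered pairs, with 1 above 0.1, so the numbers were not taken to pair libraries. With the replicate block the collagen counts were 16, 24 and 19. The planned HTSeq alternative was not run, because its columns match no sample label.

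Limits are the 3 libraries per group, the absence of a day-matched R group here, and D day1 replicate 2. The floor of 3 counts covers counting error only.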

Other observations

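Genes of the cartilage matrix were looked at after the values of Col2a1, Col9a1 and Col11a2 had been seen, so they carry no test. Of 12 such genes, 11 were in the table and 6 exceeded 1 CPM in a group mean. Sox9, a transcription factor of cartilage and of several epithelia, had 700.3 ± 29.4 CPM in R day1, 775 ± 142 in D day1 and 926 ± 17.6 in D day6 (mean ± SD, n = 3 libraries). Acan, the core protein of aggrecan, had 786 ± 43.1, 678 ± 167 and 377 ± 62.4 CPM, lowest in D day6. Hapln1, which links aggrecan to hyaluronan, had 0.369 ± 0.207, 5.91 ± 2.29 and 62.5 ± 20.4 CPM, with no overlap between groups. Lect1, which encodes chondromodulin, had 54.9 ± 13.4, 205 ± 53.9 and 121 ± 15.7 CPM, and Matn1 had 0 counts in R day1 and 0.924 ± 0.306 CPM in D day6. Sox5 had 25.2 ± 1.28, 18.6 ± 7.36 and 8.88 ± 0.752 CPM, Sox6 had 30.8 ± 3.65, 28.7 ± 10.8 and 28.8 ± 2.43 CPM, and Comp had 0.306 ± 0.0494, 0.157 ± 0.0485 and 0.0788 ± 0.0556 CPM. Matn3, Matn4 and Chad had group means of 0.215 CPM or less. Group means in D day6 were above R day1 for some of these genes and below it for others.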
